A study of Apostichopus japonicus with 9 samples.

Results

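Transcript levels in the respiratory tree of a sea cucumber, Apostichopus japonicus, were compared between animals kept for 3 days at about 2 mg/L dissolved oxygen (DO2) and animals kept at about 8 mg/L (DO8, the control). The comparison holds 6 of the 9 libraries of the study, those titled DO2-1 to DO2-3 and DO8-1 to DO8-3, chosen by their titles. Nitrogen aeration lowered the oxygen of the DO2 water, and no other treatment, genotype, strain or age is given in the labels. Each library was made from poly(A) RNA of 3 individuals pooled in equal amounts, so n = 3 means 3 pools. The p-values below set the difference between groups against the spread between pools. Tanks are not given, so a difference between tanks cannot be told apart from one between oxygen levels. The other 3 libraries, at about 4 mg/L (DO4), entered the filter on low counts and the estimate of the spread between pools, and their levels are given beside some results.

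The respiratory tree is a branched, thin-walled organ that opens into the cloaca. The animal pumps sea water in and out of it to exchange gas, so its cells meet a fall in dissolved oxygen directly. In many animals, low oxygen stabilises the transcription factor HIF, which raises genes of glycolysis and oxygen delivery, while costly processes such as protein synthesis are held back. The deposited tables name gene models by scaffold and number, without gene names, and 0 of the 27214 identifiers were found in the RefSeq gene table of the species. Neither the tissue nor these gene groups could therefore be checked against known genes, and gene models are described by level, length, position and behaviour.

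The DO2 libraries held 2902222, 2429293 and 4348873 expected counts and the DO8 libraries 3478593, 3061618 and 2524054. Levels below are CPM, counts per 1000000 of the library total after TMM scaling, a correction for libraries in which a few transcripts take much of the sequence. DO2 library 3 stood apart. In it, 3 consecutive gene models of scaffold 688 held 37.6% of its counts, compared with 0.244% to 4.17% in the other 5 libraries. Its 100 most abundant models held 71.9%, compared with 37.2% to 45.3%. Its TMM factor was 0.458, against 1.05 to 1.23 in the other 5.

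By correlation over all tested models, the low-oxygen pools were no more like each other than like the controls. Over 13933 gene models that passed the filter on low counts, Pearson's r of log2 CPM was 0.756 to 0.781 for the 3 pairs of DO2 libraries, 0.778 to 0.804 for the 9 pairs of a DO2 and a DO8 library, and 0.830 to 0.835 for the 3 pairs of DO8 libraries. DO2 library 1 had an r of 0.781 with DO2 library 2 and 0.768 with DO2 library 3, and 0.794, 0.784 and 0.778 with the DO8 libraries. DO2 library 2 had 0.756 with DO2 library 3, and 0.793, 0.778 and 0.792 with the DO8 libraries. DO2 library 3 had 0.804, 0.790 and 0.787 with the DO8 libraries, so each of these 3 values lay above both of its values with DO2 libraries. Gene models are not independent replicates, and these values carry no test. After every library was thinned to the same TMM-scaled total of 1976614 counts, the DO2 pairs had a mean r of 0.777, the mixed pairs 0.795 and the DO8 pairs 0.835.

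**Figure D1:**
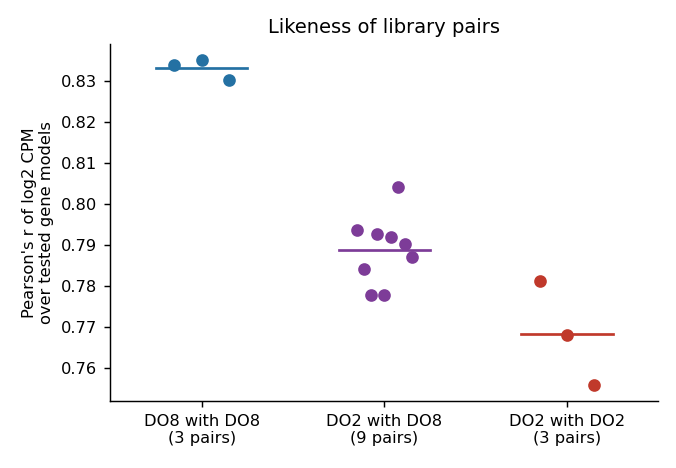
Pearson's r of log2 CPM over 13933 gene models for each pair of libraries (points) and its mean per kind of pair (lines). The 3 pairs of DO2 libraries, at 0.756 to 0.781, include 2 below and 1 within the range of the 9 pairs of a DO2 and a DO8 library, and the 3 DO8 pairs lie above all others.

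The lists of abundant transcripts gave a different order. Of the 100 most abundant models of each library, DO2 libraries 1 and 2 shared 81, libraries 1 and 3 shared 74 and libraries 2 and 3 shared 67. A DO2 and a DO8 library shared 64 to 78, so 1 DO2 pair lay above all mixed pairs and the others among them. The pairs of DO8 libraries shared 82 or 83. All 3 DO2 libraries had 65 in common, all 3 DO8 libraries 78 and all 6 libraries 54. Single models strayed more often in DO2 pools. A DO2 library was alone at least 8-fold above or below the 5 others for 146 models, 49 in library 1, 34 in library 2 and 63 in library 3. A DO8 library was alone in this way for 62 models, 17 in library 1, 17 in library 2 and 28 in library 3. The spread within a group, as the SD of log2 CPM over 3 libraries, was larger in DO2 than in DO8 for 64.2% of the models.

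Gene by gene, the 3 DO2 pools seldom left the control range together. A single DO2 library lay outside the range of the 3 DO8 libraries for 59.3% (library 1), 61.5% (library 2) and 58.8% (library 3) of the models. All 3 DO2 libraries lay above all DO8 libraries for 938 models, 6.73% of those tested, and below them for 1040, 7.46%, together 14.2%. This balance rests on the scaling, with 1035 above and 949 below under upper-quartile factors and 279 above and 2414 below on the authors' FPKM. For 3694 models, 26.5%, DO2 libraries lay on both sides of the DO8 range. For 1672 models, 12.0%, all 3 DO2 libraries lay inside it. In the reverse view, all 3 DO8 libraries lay inside the DO2 range for 3828 models, 27.5%, and on both sides of it for 1555, 11.2%.

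No gene model passed the test between DO2 and DO8. The quasi-likelihood test of edgeR, with Benjamini-Hochberg adjustment over 13933 models, called 0 models at an adjusted p under 0.05, a share of 0%. At an unadjusted p under 0.05 it gave 831 models, 5.96% of those tested, of which 380 (2.73%) were higher and 451 (3.24%) lower in DO2. There were 176 models under 0.01 and 19 under 0.001. Of the 831 models, 648 (78.0%) had no overlap between the libraries of the groups. DESeq2 called 64 of the 15789 models to which it gave an adjusted p, a share of 0.405%, with 27 higher (0.171%) and 37 lower (0.234%). Of these 64, 60 were tested by edgeR, all 60 had an unadjusted p under 0.05 there, and 58 had no overlap. Limma on the authors' log2(FPKM + 1) called 1 of 18650 models, 0.00536%. The FPKM values carry no correction for the transcripts that filled DO2 library 3, and on them limma gave 144 higher and 1151 lower models at an unadjusted p under 0.05, with a median log2 fold change of all models of -0.36.

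With TMM scaling, differences were mostly small and about evenly split in direction. The log2 fold change of DO2 over DO8 had a median of 0.04 and was above 0 for 7319 models, 52.5%. Its median size was 0.46 (1.38-fold), and 95% of the models lay within 1.88 (3.67-fold). A difference of at least 2-fold was estimated for 2640 models (18.9%) and of at least 4-fold for 599 (4.30%), 311 higher and 288 lower. Among models at an unadjusted p under 0.05 the median log2 fold change was 1.76 for those higher and -1.71 for those lower, sizes that this choice by p itself favours.

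**Figure D2:**
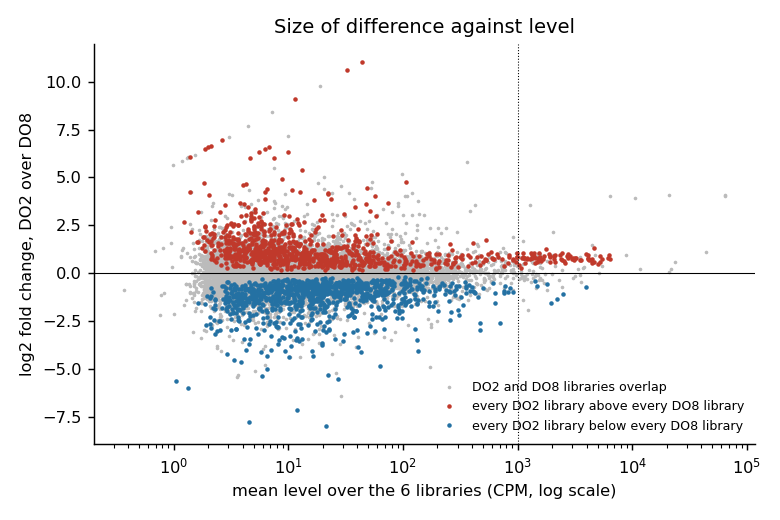
Log2 fold change of DO2 over DO8 (vertical) against the mean level over the 6 libraries (horizontal, CPM on a log scale) for 13933 gene models, with the 938 whose DO2 libraries all lie above and the 1040 whose DO2 libraries all lie below the DO8 libraries in colour. The dotted line marks 1000 CPM, to the right of which most coloured points lie above 0 with this TMM scaling. On FPKM without TMM scaling 0 models of that class lay above the controls without overlap and 16 below.

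With TMM scaling, most of the most abundant transcripts were higher in DO2. Of 152 gene models with a mean of at least 1000 CPM over the 6 libraries, 114 had a positive log2 fold change. All 3 DO2 libraries lay above all DO8 libraries for 72 of them (47.4%, against 6.73% of all models) and below for 7 (4.61%, against 7.46%). Without DO2 library 3 the latter count was 19, without DO8 library 2 it was 15, and without DO2 library 1 it was 11, with 74 to 78 above in these 3 settings, in each of which 2 libraries face 3. Among all models, 938 lay above and 1040 below in the main fit, and these counts rose as well. They were 2177 and 2090 without DO2 library 3, 1523 and 1667 without DO8 library 2, and 1753 and 1945 without DO2 library 1. The median log2 fold change of the 152 models was 0.69 (1.61-fold), which is 0.65 above the median of all models, and it was 0.46 above without DO2 library 3. For the 72 models without overlap it ran from 0.26 to 1.35 with a median of 0.80. In this class 20 models (13.2%, against 2.73% of all models) were higher and 1 (0.658%, against 3.24%) was lower at an unadjusted p under 0.05, and the lowest edgeR adjusted p was 0.743, so none passed the test. The counts without overlap rest on the scaling: DESeq2 size factors gave 72 above and 7 below and upper-quartile factors 72 and 6. On the authors' FPKM, without TMM scaling, 0 lay above and 16 below. Relative to the median of all models, the class lay higher on log2(FPKM + 1) too, by 0.49. In bulk tissue, more or fewer cells of a type and more or less RNA per cell cannot be told apart. Models of 10 to 100 CPM had 363 of 6746 (5.38%) above and 582 (8.63%) below the DO8 libraries, and those of 100 to 1000 CPM 88 of 987 (8.92%) above and 109 (11.0%) below, a balance that turned to 103 and 98 with upper-quartile factors. Because the level over the 6 libraries includes the values compared, classes were also set by the DO4 libraries. Of 150 models with at least 1000 CPM there, 83 (55.3%) lay above the DO8 libraries without overlap and 7 (4.67%) below, with a median log2 fold change 0.67 above that of all models.

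**Figure D3:**
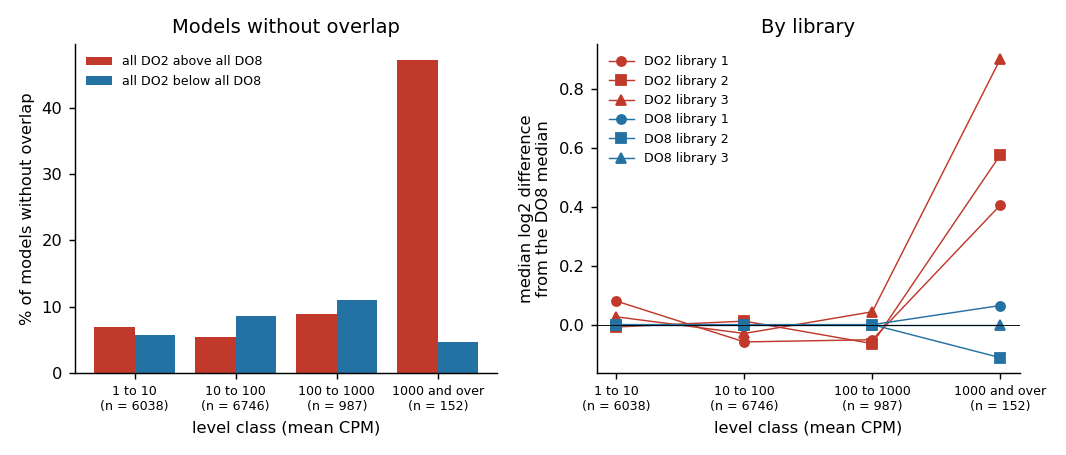
Left, percent of gene models in 4 classes of mean level whose DO2 libraries all lie above (red) or all below (blue) the DO8 libraries, with 47.4% above in the class of at least 1000 CPM under TMM scaling (0 models on FPKM without TMM scaling). Right, for each library and class, the median over models of the log2 difference from the middle DO8 library, less the same over all models. In the most abundant class the 3 DO2 libraries lie at 0.41, 0.58 and 0.90, where the DO8 libraries lie between -0.11 and 0.07. The DO8 values are drawn towards 0 by construction, because a DO8 library is the reference for each model. They do not measure how alike the controls are.

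Within the abundant class, short gene models held most of the members above the controls. Of 97 abundant models of up to 1000 bases, 64 (66.0%) lay above the DO8 libraries in all 3 DO2 libraries and 0 below. On FPKM without TMM scaling, however, 0 of the 97 lay above and 3 below, with a median still 0.59 above that of all models. Without DO8 library 2 the count below was 6, without DO2 library 3 it was 4, without DO2 library 2 it was 2, and without DO2 library 1 or DO8 library 3 it was 1. In these settings 2 libraries face 3, and 3190 to 4267 of all models lay without overlap, against 1978 in the main fit. The median log2 fold change of the 97 was 0.75, with quartiles of 0.56 and 0.89, and 81 were positive. At an unadjusted p under 0.05, 11 of the 97 were higher and 0 lower, against 2.73% and 3.24% of all models. Of 55 longer abundant models, 8 (14.5%) lay above and 7 (12.7%) below, with a median of 0.24. At an unadjusted p under 0.05 in edgeR, 9 of these 55 were higher and 1 lower. By that count the excess was not particular to the short models. However, the 9 include evm.model.scaffold688.8 and evm.model.scaffold688.10, for which only DO2 library 3 lay above the controls. Without DO2 library 3, 9 of the 55 longer models lay above and 15 below and their median was -0.16. The median of the short abundant models without that library was 0.63. Short models under 1000 CPM had a median of 0.04 and 422 of 6598 (6.40%) above against 502 (7.61%) below. Measured from the middle DO8 library and relative to all models, the short abundant models had a median log2 difference of 0.50, 0.83 and 0.94 in the DO2 libraries and of 0.10, -0.15 and 0 in the DO8 libraries. The DO8 values are drawn towards 0 by construction, because a DO8 library is the reference for each model. The DO4 libraries had 1.53, 0.01 and 0.26, so 1 of them exceeded every DO2 library and another lay among the controls. As a share of all counts these 97 models took 25.2%, 30.7% and 17.0% in the DO2 libraries and 22.6%, 20.4% and 22.3% in the DO8 libraries. On that scale DO2 library 3, with its counts filled by the scaffold 688 models, lay below every control. The division at 1000 bases was chosen after the data were seen. The part of library composition in this result was not tested.

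The 5 models with the highest mean level showed how single abundant transcripts behaved. Model evm.model.scaffold688.8 was at 9052, 1507 and 355900 CPM in the DO2 libraries and at 16630, 3505 and 2504 in the DO8 libraries. Model evm.model.scaffold688.10 was at 6650, 647.5 and 354500 CPM in DO2 and 17220, 2850 and 1558 in DO8. For both, 1 DO2 pool was far above and 1 below every control, so the groups overlapped. None of their 6 expected counts was a whole number, which is how reads divided among gene models appear, and the level of each alone is uncertain. Model evm.model.scaffold811.7 was at 37480, 24040 and 118800 CPM in DO2 and 24390, 32890 and 25920 in DO8, with 2 DO2 pools above and 1 just below the controls. Model evm.model.scaffold843.20 was at 12850, 23580 and 47960 CPM in DO2 and 18660, 15970 and 21770 in DO8, and again DO2 pools lay on both sides. Model evm.model.scaffold420.110 varied less, at 19530, 26420 and 24170 CPM in DO2 and 17490, 19600 and 23090 in DO8. Its listed length was 1761004 bases, so its level per length is not comparable with that of other models, and none of its 6 expected counts was whole.

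Among models without overlap and with an unadjusted p under 0.05, the largest excess in DO2, in CPM, belonged to evm.model.scaffold1221.2 and evm.model.scaffold2335.4. Model evm.model.scaffold1221.2, 8367 bases long, was at 10260, 2921 and 6793 CPM in DO2 and 2623, 2916 and 2304 in DO8. DO2 library 2 exceeded the highest control by a narrow margin. The means were 6659 ± 3673 and 2614 ± 306 CPM (SD, n = 3), a log2 difference of 1.35 ± 0.57 (SE), at adjusted p = 0.835 in edgeR. The difference was 0.89 without DO2 library 1 and 0.68 on log2(FPKM + 1). As a share of all counts the model took 1.128%, 0.303% and 0.309% in DO2 and 0.279%, 0.352% and 0.261% in DO8. On that scale DO2 libraries 2 and 3 lay within the control range. Model evm.model.scaffold2335.4, 555 bases long, was at 3109, 3687 and 4446 CPM in DO2 and 2043, 1862 and 2049 in DO8. With TMM scaling the DO2 pools were clear of the controls here, at 3747 ± 671 against 1985 ± 106 CPM (SD, n = 3). The log2 difference was 0.92 ± 0.41 (SE), also at adjusted p = 0.835 in edgeR. As a share of all counts the model took 0.342%, 0.383% and 0.202% in DO2 and 0.217%, 0.225% and 0.232% in DO8. On that scale DO2 library 3 lay below every control, so the separation rests on the scaling. On log2(FPKM + 1) the difference was 0.41. None of its 6 expected counts was whole, so its level alone is uncertain. The DO4 libraries were at 4019, 6575 and 1663 CPM for evm.model.scaffold1221.2 and at 4496, 1550 and 2516 for evm.model.scaffold2335.4, in each case 2 above and 1 below the control range.

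Under the same limits on overlap and p, the largest deficits in DO2 belonged to 2 near neighbours, evm.model.scaffold29.36 and evm.model.scaffold29.34. Model evm.model.scaffold29.36, of 1320 bases, was at 1360, 800.8 and 846.4 CPM in DO2 and 2216, 3289 and 3342 in DO8. Every DO2 pool was below every control, with means of 1003 ± 311 and 2949 ± 635 CPM (SD, n = 3), a 2.94-fold lower level in DO2. On the log2 scale the difference was -1.56 ± 0.55 (SE), at adjusted p = 0.806 in edgeR. Model evm.model.scaffold29.34, of 1419 bases, was at 147.1, 184.6 and 265.1 CPM in DO2 and 415.8, 1689 and 1503 in DO8. Its mean was 6.04-fold lower in DO2, a log2 difference of -2.60 ± 0.67 (SE), at adjusted p = 0.680 in edgeR. DESeq2 gave it an adjusted p of 0.0365, and over the 16 alternatives its adjusted p ran from 0.0365 to 1.00. In the DO4 libraries evm.model.scaffold29.36 was at 2507, 3126 and 635.4 CPM and evm.model.scaffold29.34 at 938.6, 1020 and 237.6, so DO4 libraries 1 and 2 lay within the control range for both, and library 3 below it.

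Models around these lay lower in DO2 too. On scaffold 29, 7 models numbered 30 to 38 were tested, all 7 had a negative log2 fold change, and 5 lay wholly below the controls, where 7.46% of all models did. Model evm.model.scaffold29.37 was at 10.7, 0.396 and 3.04 CPM in DO2 and 41.7, 91.9 and 33.9 in DO8, at adjusted p = 0.743 in edgeR. Model evm.model.scaffold29.38 was at 268.4, 306.3 and 410.8 CPM in DO2 and 555.1, 1172 and 1139 in DO8, at adjusted p = 0.792 in edgeR. All expected counts of the 3 consecutive models 36 to 38 were whole numbers in the 6 libraries, so none of these counts showed reads divided with another model. The stretch was picked from its values, and its sign count carries no test.

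A shorter stretch on scaffold 44 was higher in DO2. Model evm.model.scaffold44.79 was at 14.7, 13.1 and 8.09 CPM in DO2 and 0.812, 0.270 and 0.699 in DO8. Model evm.model.scaffold44.80 was at 11.0, 8.72 and 8.09 CPM in DO2 and 0, 0 and 0.350 in DO8, where 0.350 is a single count. Model evm.model.scaffold44.81 was at 19.1, 14.3 and 19.7 CPM in DO2 and 1.89, 4.06 and 6.64 in DO8. The groups did not overlap in any of the 3, and edgeR's adjusted p was 0.322, 0.387 and 0.743 in the same order. The DO4 libraries, at 2.55, 2.54 and 1.17 CPM for evm.model.scaffold44.79 and 3.40, 2.22 and 0.467 for evm.model.scaffold44.80, lay between the groups. For evm.model.scaffold44.81 they were at 5.96, 17.79 and 11.45 CPM, with library 1 within the control range and library 2 within the DO2 range. None of the 3 models had whole expected counts in all 6 libraries, so some of their reads were divided among models and the level of each alone is uncertain.

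**Figure D4:**
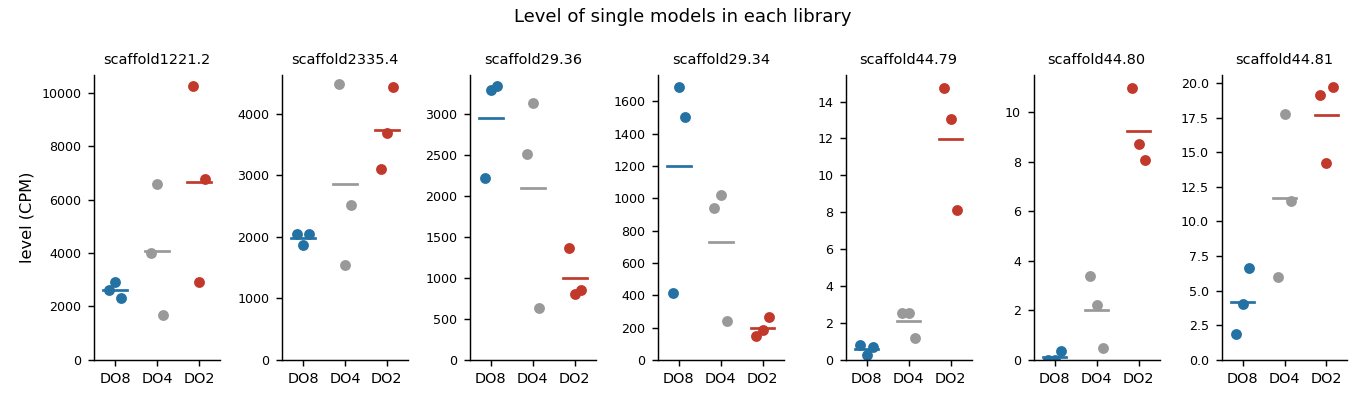
Level in CPM (vertical axes from 0, one scale per panel) of 7 gene models in each of the 3 DO8, 3 DO4 and 3 DO2 libraries (points) with the group mean (lines). With TMM scaling, the DO2 points of every panel lie wholly above or wholly below the DO8 points. They lie above for evm.model.scaffold1221.2, evm.model.scaffold2335.4 and scaffold 44, and below for scaffold 29. The DO4 points spread between and across those of DO2 and DO8. As a share of all counts, evm.model.scaffold1221.2 and evm.model.scaffold2335.4 overlap between DO2 and DO8.

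Gene models that neighbour each other differed in the same direction more often than distant ones. Among pairs of tested evm models with consecutive numbers on 1 scaffold, 3498 of 6253 (55.9%) had the same sign of log2 fold change, and r of the fold changes was 0.21. The share was 53.5% for models 2 numbers apart, 50.8% for 5, 51.2% for 10 and 51.4% for 20, with r of 0.08, 0.02, 0.04 and 0.08. Between models whose expected counts were whole in all 6 libraries, the consecutive pairs gave 1315 of 2342 (56.1%) with an r of 0.16. Here the contrast with distant pairs was smaller, with 54.8% at 2 numbers apart, 52.7% at 5, 52.2% at 10 and 54.3% at 20, the last over 339 pairs. Of the 6253 consecutive pairs, both members lay above the DO8 libraries in 44, both below in 64, and on opposite sides in 50. In the same order the counts were 24, 37 and 37 of 3709 pairs 5 numbers apart, and 6, 10 and 19 of 1228 pairs 20 apart. Of single models, 6.73% lay above and 7.46% below. These counts carry no test. Runs of 3 or more consecutive models without overlap numbered 2 above the controls, both of 3 models, and 6 below, 5 of 3 models and 1 of 4. The longest run below, models 12 to 15 of scaffold 670, had means of at most 7.30 CPM in DO2 and of 6.03 to 13.5 in DO8, with unadjusted p of 0.083 to 0.126 by edgeR. The other run above, models 25 to 27 of scaffold 249, had log2 fold changes of 0.41 to 1.69.

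**Figure D5:**
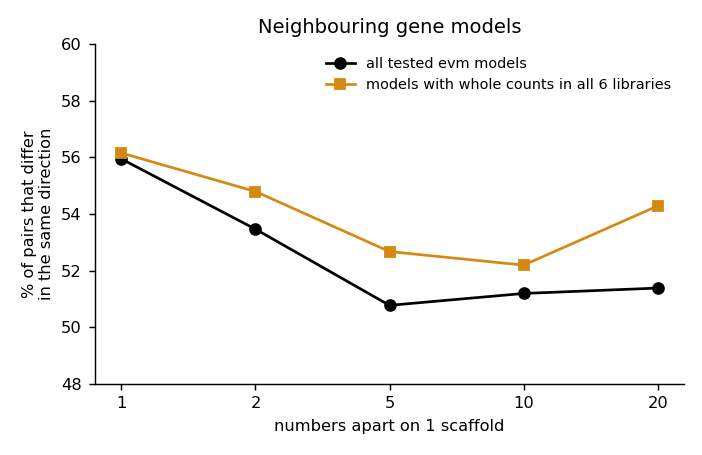
Percent of pairs of gene models on 1 scaffold whose log2 fold changes of DO2 over DO8 have the same sign (vertical, from 48% to 60%) against how many numbers apart they are, for all tested evm models and for those with whole expected counts in all 6 libraries. Consecutive models are highest in both, at 55.9% and 56.1%, and the other shares are 50.8% to 53.5% and 52.2% to 54.8%.

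The models with the lowest p were mostly scarce in the controls. A model so scarce there could pass the filter on low counts only through other libraries, where it was high. The filter and the choice by p thus favour this pattern, and it is no separate result. Besides evm.model.scaffold44.79, 4 models shared the lowest edgeR adjusted p of 0.322: evm.model.scaffold2424.5, evm.model.scaffold1622.1 and evm.model.scaffold50.32 were higher and evm.model.scaffold125.4 lower in DO2. These were named after their values were seen. Model evm.model.scaffold50.32 was at 23.2, 11.1 and 42.5 CPM in DO2, at 1.08, 0.541 and 0 in DO8 and at 5.96, 2.86 and 5.14 in DO4. Its DO4 libraries all lay above the controls and below every DO2 library.

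Transcripts counted in every pool of 1 group and in none of the other were few and scarce. Of 26405 models listed in any of the 6 libraries, 173 were such models for DO2 and 126 for DO8. They had a median of 6 and 9 counts summed over the group, and 123 and 78 of them had at most 10. Only 8 and 3 of them passed the filter on low counts and were tested, and 36 and 27 had no counts in the DO4 libraries either. At least 100 counts were reached by 3 models in DO2 and by 0 in DO8. Model evm.model.scaffold1622.1 had 259, 51 and 319 counts in DO2. Model evm.model.scaffold131.3 had 184, 28 and 254 counts in DO2 and was at least 207-fold higher there, against 3 counts over the DO8 group. Model evm.model.scaffold2817.2 had 98, 78 and 15 counts in DO2, at least 84.9-fold higher, and 0, 135 and 235 in the DO4 libraries. The highest of the DO8 models, evm.model.scaffold46.44, had 24, 11 and 51 counts in DO8 and was at least 21.5-fold lower in DO2, against 3 counts over the DO2 group. These 4 were named after their values were seen. The bounds allow for counting error only in the group without counts. They leave out counting error in the other group and the spread between pools.

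Other properties of the gene models gave smaller contrasts. Models of up to 500 bases lay above the controls in 10.3% and below in 6.21%, those of over 1000 and up to 2000 bases in 5.64% and 8.49%, and those over 4000 bases in 9.87% and 3.82%. The long models differed by pool, with a median log2 difference from the middle DO8 library, relative to all models, of 0.09, -0.02 and 0.27 in the DO2 libraries. The 381 tested models whose identifiers begin with add.evm.model had a median log2 fold change of -0.12, against 0.05 for the 13289 evm models, and the lower value came mainly from DO2 library 1, at -0.24 against -0.01 and -0.04 in the others. Models with whole expected counts in all 6 libraries and the others had medians of 0.08 and 0.00.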

How the data were processed

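Each deposited table lists gene models with a length, an expected count and FPKM. Per the file headers, expected counts are estimates by the authors of reads per model, not normalized. The FPKM values are the authors' own, per the file headers. The submitters' processing notes name CASAVA (version 1.5). Aligner, counter, build and annotation: not given in the sources used here. Gene models are those of the authors' identifiers.

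Models not listed in a table were taken as 0. Counts were rounded and fitted with edgeR 4.0.16 in R 4.3.3 (glmQLFit, robust, glmQLFTest) on all 9 libraries with 1 coefficient per group, TMM factors and the default filterByExpr, which kept 13933 of 27214 models with 99% of the counts of the 6 libraries. P-values were adjusted by Benjamini-Hochberg with a threshold of 0.05. SE was derived from the log2 fold change and F. Log2 CPM used a prior count of 2. A count of 0 allowed up to 0.811 to 1.52 CPM per library (3 counts). EdgeR put the common coefficient of variation between pools at 61.1%. The fit was also run on simulated data. How large a change 3 pools per group could detect is not reported here, so 0 calls does not show that levels were alike. Alternatives used DESeq2 1.42.0, limma 3.58.1 and other scalings and filters. Models were named by a rule: the 2 higher and 2 lower with the largest difference of mean CPM among those without overlap and with an unadjusted p under 0.05, the 5 most abundant, and the longest runs by scaffold. Others are marked. The comparison, members and lists were chosen with earlier results of these data known.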

Additional observations from a re-analysis of the deposited data

How the results depend on the processing

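EdgeR called 0 models with DESeq2 size factors, upper-quartile factors, no filter, only DO2 and DO8 fitted, and without each library in turn. Limma on counts with voom quality weights called 0 as well. DESeq2 called 64. Limma called 1 on log2(FPKM + 1), 1 on log2(FPKM + 0.1) and 1 without its filter, evm.model.scaffold1622.1 in the first and last and evm.model.scaffold470.17 in the second. Models at an unadjusted p under 0.05 numbered 1505 without the filter, 1295 by DESeq2, 1295, 1252 and 1672 by limma on FPKM in the same order, and 638 to 1020 without single libraries. The main fit had 831 of 13933 models (5.96%). Without the filter and by DESeq2, 27060 models were fitted, and limma on FPKM with its filter tested 18650. Counts over unlike numbers of models, here and for overlap below, do not compare as amounts of change. Those without overlap numbered 3030 without the filter, 3165 on FPKM without a filter (602 higher, 2563 lower) and 2693 with it (279 higher, 2414 lower), and 3190 to 4267 without single libraries, where 2 libraries face 3. The median log2 fold change was 0.079 with upper-quartile factors, which turned the unadjusted balance to 434 higher and 403 lower, -0.36, -0.48 and -0.18 on FPKM, and -0.016 to 0.070 without single libraries. The lead of the models of at least 1000 CPM over all models was 0.31 on unfiltered FPKM, 0.46 to 0.79 without single libraries, and 0.49 to 0.67 otherwise. Consecutive models had the same sign in 52.3% of pairs without the filter and in 55.7% to 56.5% without single libraries. With prior counts of 0.5 and 5, single DO2 libraries stood 8-fold apart for 406 and 70 models and DO8 libraries for 215 and 29. Over models of at least 10 CPM the mean r was 0.714 within DO2, 0.738 between groups and 0.795 within DO8, and over at least 100 CPM 0.660, 0.709 and 0.762. The settings for level, thinning and neighbours, other than the filter, were chosen after seeing the data. For all of these, the cause was not tested. A replicate block gave 0 calls and 567 models at an unadjusted p under 0.05. Deviations of same-numbered libraries from their group means had r of -0.0002, -0.037 and -0.024, and those of unlike-numbered libraries -0.034 to 0.058. Whether same-numbered libraries share more than a number is not given in the labels and was not tested. The 4 models named for their differences kept their direction in all 64 alternative values, as choosing models without overlap favours, and 1 value passed the threshold.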
